A study of Mus musculus with 2 samples.

Results

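The genes described here are 9 genes known for their expression in the upper layers of the cerebral cortex: Cux1, Cux2, Rorb, Pou3f2, Pou3f3, Lhx2, Rasgrf2, Mdga1 and Mef2c. They were chosen by symbol, each symbol matched 1 gene identifier, and they are 9 of the 43346 mouse genes in the deposited tables. The tissue was cortex of adult C57BL/6J mice at 8 weeks, taken from pooled male and female littermates, with no transgene, treatment or second condition. Polyadenylated RNA was sequenced as 2 stranded libraries, labelled biological replicates 2 and 1, which come from separate tissue samples listed under the same donor entry. Replicate 2 held 88643305 gene counts and replicate 1 held 88327120. Differences below set replicate 2 over replicate 1. Any p-value sets the difference between these 2 libraries against counting error alone. It leaves out variation between libraries beyond counting and says nothing of a condition.

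Neurons of the upper cortical layers send their axons mainly to other cortical areas, while those of the deep layers project largely to targets below the cortex. Much of what separates them is set by transcription factors: Cux1 and Cux2 are cut-like homeodomain proteins, Pou3f2 and Pou3f3 are POU-domain proteins also known as Brn2 and Brn1, Lhx2 is a LIM-homeodomain protein, Rorb is a nuclear receptor that marks layer 4, and Mef2c is a MADS-box factor that acts in synapse development. Rasgrf2 encodes an exchange factor that activates Ras, and Mdga1 encodes a membrane-anchored immunoglobulin protein that binds neuroligins. Several of these genes are also active in other cells, so in a piece of whole cortex fewer cells of a type and less RNA per cell cannot be told apart.

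The label of the tissue was checked against marker genes. The excitatory neuron markers Slc17a7, Camk2a, Neurod6 and Nrgn summed to 2556 TPM in replicate 2 and 2977 TPM in replicate 1 (TPM, a level divided by transcript length and scaled to the same total in each library). Interneuron markers summed to 708 and 741 TPM, astrocyte markers to 289 and 315 TPM, microglial markers to 91.1 and 106 TPM, endothelial markers to 66.8 and 74.6 TPM and oligodendrocyte precursor markers to 13.6 and 17.2 TPM, in replicate 2 and replicate 1 in that order. The libraries differed in markers both of cortical cells and of neighbouring tissue. By scaled counts all 4 excitatory neuron markers were lower in replicate 2, with Neurod6 at a ratio of 0.749, and so were both oligodendrocyte precursor markers and 2 of 4 microglial markers. Higher in replicate 2 were 4 of 5 interneuron markers and 3 of 4 astrocyte markers, although their summed TPM was lower there, and none of the 3 endothelial markers passed the threshold. The median log2 ratio over all genes tested was -0.16 by TPM and 0.00 by scaled counts. All 5 striatal projection neuron markers were higher in replicate 2, with a sum of 239 TPM against 92.5 TPM in replicate 1, and all 4 oligodendrocyte markers were higher there, with 3441 against 2808 TPM. All 3 dentate granule cell markers were lower in replicate 2, with 4.12 against 12.1 TPM, and Dsp was near 0 there, at 0.03 TPM. Each of these calls had an adjusted p under the threshold of 0.05 in the exact binomial test described below. Of all genes tested, 28.7% passed that threshold.

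All 9 genes were expressed, from Mef2c at the top to Mdga1 at the bottom. Mef2c (ENSMUSG00000005583, chromosome 13, 83504034 to 83667080, plus strand, mm10) had 113 TPM in replicate 2 and 124 TPM in replicate 1, from 48635 and 48872 counts. That is 118 ± 7.79 TPM (SD, n = 2), a level above 94.0% of the 14465 genes that averaged at least 1 TPM. Mef2c stood 2.76-fold in replicate 2 and 2.71-fold in replicate 1 above the next gene, Lhx2.

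A group of 4 genes followed close together. Lhx2 (ENSMUSG00000000247, chromosome 2, 38339281 to 38369733, plus strand) had 40.8 TPM in replicate 2 and 45.6 TPM in replicate 1. Rasgrf2 (ENSMUSG00000021708, chromosome 13, 91880400 to 92131656, minus strand) had 39.8 and 43.9 TPM in replicates 2 and 1. The ranges of these 2 genes overlapped, so they did not differ beyond the spread of the libraries. Cux2 (ENSMUSG00000042589, chromosome 5, 121856366 to 122050102, minus strand) had 37.3 TPM in replicate 2 and 37.7 TPM in replicate 1. Cux1 (ENSMUSG00000029705, chromosome 5, 136248135 to 136567490, minus strand) had 33.6 and 36.4 TPM in replicates 2 and 1. The levels of Rasgrf2 and Cux2 did not overlap, nor did those of Cux2 and Cux1. The credible bounds that the authors deposited did overlap in 1 library for each of these pairs, in replicate 2 for Rasgrf2 and Cux2 and in replicate 1 for Cux2 and Cux1.

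The 4 remaining genes were separate from one another in level in both libraries, and their credible bounds did not overlap. Pou3f3 (ENSMUSG00000045515, chromosome 1, 42695768 to 42703176, plus strand) had 18.5 TPM in replicate 2 and 21.4 TPM in replicate 1. Rorb (ENSMUSG00000036192, chromosome 19, 18930605 to 19111196, minus strand) had 11.1 TPM in replicate 2 and 12.1 TPM in replicate 1. Pou3f2 (ENSMUSG00000095139, chromosome 4, 22482780 to 22488366, minus strand) had 8.24 TPM in replicate 2 and 8.92 TPM in replicate 1. Both POU genes are single-exon genes, and the level of Pou3f3 was the higher of the pair in each library. Mdga1 (ENSMUSG00000043557, chromosome 17, 29827949 to 29970087, minus strand) had 5.23 TPM in replicate 2 and 4.92 TPM in replicate 1, from 1539 and 1675 counts. It was the only one of the 9 genes whose TPM was higher in replicate 2, while its counts were lower there: its deposited effective length was 3962 bases in replicate 2 and 5030 bases in replicate 1.

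**Figure D1:**
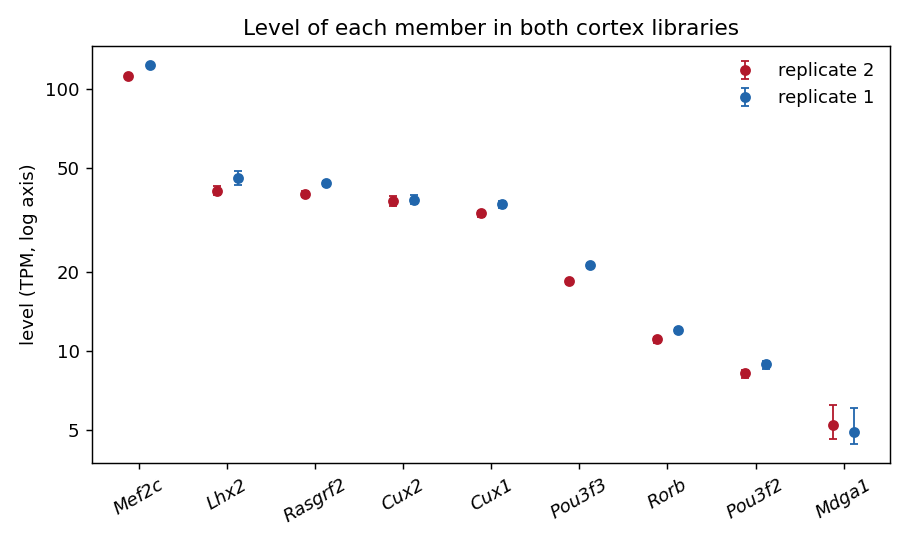
Level of each of the 9 genes in TPM on a log axis, with replicate 2 in red left of replicate 1 in blue; the bars are the credible bounds deposited by the authors. Mef2c lies alone above 100 TPM, Lhx2, Rasgrf2, Cux2 and Cux1 lie between 33.6 and 45.6 TPM, and Mdga1 is lowest at about 5 TPM.

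Between the libraries the 9 genes differed little. Rounded counts were scaled by edgeR's trimmed mean of M-values and compared by a two-sided exact binomial test, adjusted by the method of Benjamini and Hochberg over the 19829 genes that reached 10 counts. None of the 9 genes passed an adjusted p of 0.05, beside 28.7% of all genes tested. Before adjustment 3 of the 9, Mef2c, Pou3f3 and Cux2, had a p under 0.05, with p = 0.0206, 0.0214 and 0.0279 in the exact test. The median log2 ratio of scaled counts was 0.03 over the 9 genes and 0.00 over all genes tested. The count of calls rested on the scaling. With plain totals Mdga1, Pou3f3 and Rasgrf2 passed, beside 31.2% of all genes tested. With DESeq2 size factors Pou3f3 passed, beside 28.7% of all genes tested.

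The widest log2 ratio was that of Mdga1, -0.09, with an exact 95% interval of -0.19 to 0.01 that covers counting error only. Pou3f3 had a log2 ratio of -0.05 and an interval of -0.09 to -0.01. Pou3f2, with 3291 counts in replicate 2 and 3253 in replicate 1, had a log2 ratio of 0.05 and an interval of -0.03 to 0.12. The narrowest interval was that of Mef2c, 0.00 to 0.04 around a log2 ratio of 0.02. The part that the cell type markers named above had in these ratios was not tested.

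**Figure D2:**
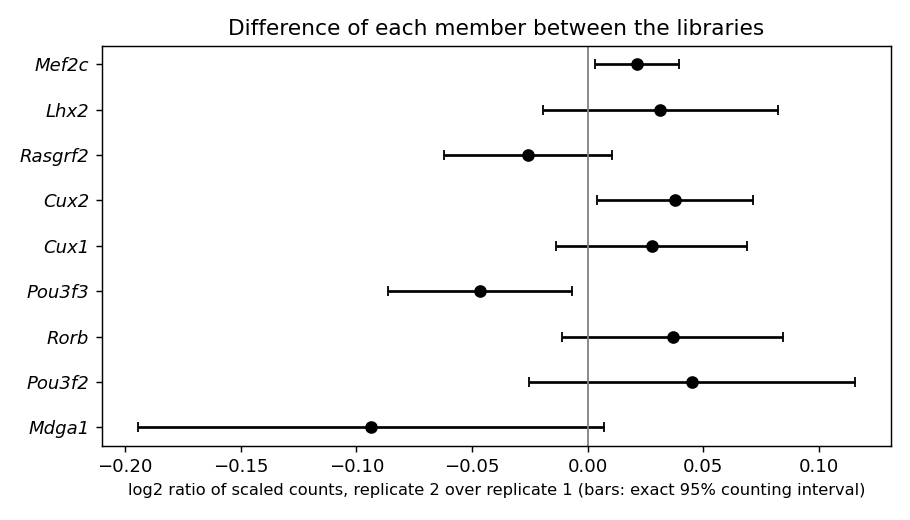
Log2 ratio of scaled counts, replicate 2 over replicate 1, for each gene in order of level; the bars are exact 95% intervals for counting error. Every ratio lies between -0.09 and 0.05, and only Mdga1 has an interval that reaches below -0.10.

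Other genes of the cortical layers gave the setting. Of 14 further genes known from the upper layers, 14 averaged at least 1 TPM, and their median log2 ratio was 0.03. Past the adjusted threshold 5 were higher and 2 lower in replicate 2, which is 7 of 14 beside 28.7% of all genes tested. The most abundant of them was Lamp5, a membrane protein of upper-layer neurons, with 209 TPM in replicate 2 and 205 TPM in replicate 1. Calb1, which encodes the calcium buffer calbindin, had 34.1 and 36.5 TPM in replicates 2 and 1, and the semaphorin receptor Plxnd1 had 32.5 and 31.9 TPM. Inhba, which encodes an activin subunit, was the least abundant at 2.12 TPM in replicate 2 and 2.33 TPM in replicate 1.

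Of 15 deep-layer genes, 9 passed the adjusted threshold, beside 28.7% of all genes tested. Among the deep-layer genes called, 7 were higher and 2 lower in replicate 2, and the median log2 ratio of the list was 0.07. Pcp4 led with 371 TPM in replicate 2 and 331 TPM in replicate 1, followed by Rprm with 42.1 and 48.3 TPM and by Tbr1, a T-box factor of layer 6, with 37.7 and 41.4 TPM. Ntsr1, the neurotensin receptor used to mark layer 6, was lowest at 2.79 TPM in replicate 2 and 3.27 TPM in replicate 1. Nr4a2, a nuclear receptor of the subplate and claustrum, was the deep-layer gene with the widest difference: 2346 counts in replicate 2 against 1175 in replicate 1, a 2.04-fold ratio with an adjusted p of 5.5e-91 in the exact binomial test. The median level of the 9 genes was 33.6 TPM in replicate 2 and 36.4 TPM in replicate 1, and that of the 15 deep-layer genes was 16.0 and 16.9 TPM. The 14 other upper-layer genes had medians of 13.5 and 17.2 TPM, close to those of the deep-layer genes. On the log2(TPM + 1) scale the difference between the 9 genes and the deep-layer genes was 1.04 by medians, and 0.47 by means, so the size of the gap rested on the summary used.

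Each gene was set beside relatives of its own family, as levels per length. Cux1 stood at 0.901 of the level of Cux2 in replicate 2 and 0.966 in replicate 1. With the authors' mm9 RPKM (reads scaled to gene length and library size), which rest on an older annotation, the log2 ratio of Cux1 to Cux2 was -1.12, wider than with mm10 TPM. Rorb was near its relative Rora, which had 11.6 TPM in replicate 2 and 12.1 TPM in replicate 1. Pou3f2 stood at 0.445 of Pou3f3 in replicate 2 and 0.417 in replicate 1. The other 2 class III POU genes were lower than Pou3f3. Pou3f1 had 6.82 TPM in replicate 2 and 8.64 TPM in replicate 1, and Pou3f4 had 4.2 and 3.04 TPM. With mm9 RPKM the log2 ratio of Pou3f3 to Pou3f1 was 3.41, wider than the 1.37 with mm10 TPM.

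Lhx2 was nearly alone among the 8 LIM-homeodomain genes examined. Lhx6, a factor of interneurons, had 4.18 TPM in replicate 2 and 4.48 TPM in replicate 1. Lhx9, the closest relative of Lhx2, had 16 counts in replicate 2 and 123 counts in replicate 1, with an adjusted p of 1.37e-19 in the exact binomial test. Lhx8 had 26 counts in replicate 2 and 0 in replicate 1. Lhx1, Lhx3, Lhx4 and Lhx5 had 2 to 6 counts in each library.

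Mef2c was the leading MEF2 gene of the cortex libraries. Its level was 1.73-fold that of Mef2d in replicate 2 and 1.77-fold in replicate 1, and 3.88-fold and 3.83-fold that of Mef2a. Mef2b had 0.09 TPM in replicate 2 and 0.11 TPM in replicate 1. Rasgrf2 was lower than Rasgrf1, which had 61.3 TPM in replicate 2 and 77.6 TPM in replicate 1. Mdga1 was likewise lower than Mdga2, which had 10.3 TPM in replicate 2 and 9.18 TPM in replicate 1. Of 16 relatives, 13 had enough counts to be tested. By the adjusted test 5 were higher and 3 lower in replicate 2, which is 8 of 13 beside 28.7% of all genes tested.

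Genes for proteins known to work with members of this set were all expressed. A list of 22 partners held calmodulin genes, Ras proteins and Rac1 of the Rasgrf2 pathway, the LIM cofactors Ldb1, Ldb2, Lmo3 and Lmo4 and the Ssbp proteins of the Lhx2 complex, the class IIa histone deacetylases that bind MEF2 factors, and the neuroligins bound by Mdga1. All 22 averaged at least 1 TPM, their median level was 49.0 TPM in replicate 2 and 56.0 TPM in replicate 1, and their median log2 ratio was 0.00. Past the adjusted threshold 7 were higher and 3 lower in replicate 2, which is 10 of 22 beside 28.7% of all genes tested. Calm2 had 1245 TPM in replicate 2 and 1400 TPM in replicate 1, and Calm3 had 1014 and 1072 TPM. Hdac9 was lowest, at 6.17 TPM in replicate 2 and 6.88 TPM in replicate 1.

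The transcripts behind each gene level differed in what they encode, most of all for Cux1. Most Cux1 transcripts ended at a distal last exon and lacked the exons of the homeodomain; a product of this kind is known as CASP, a Golgi membrane protein that shares the first part of the Cux1 coding sequence. Cux1-211 held 44.45% of the level in replicate 2 and 41.54% in replicate 1, Cux1-205 held 18.26% and 19.81%, and Cux1-207 held 11.8% and 10.3%, all with the distal end. The 5 annotated transcripts with the distal end summed to 25.2 TPM in replicate 2 and 26.2 TPM in replicate 1. The 6 transcripts with the homeodomain end summed to 5.42 TPM in replicate 2 and 6.34 TPM in replicate 1. On this scale 16.1% and 17.4% of the level of Cux1 was assigned to the homeodomain end, and 9.05% and 10.6%, in 3 transcripts, to neither. The largest of the 3 was Cux1-208, with 1.84 TPM in replicate 2 and 2.59 TPM in replicate 1. Its 3′ end, at 136313234, lies inside the exon from 136312643 to 136313314 that joins the shared part to the homeodomain end. The homeodomain level is thus higher if Cux1-208 is counted with that end. By counts the ends were nearly equal, with 4606 distal and 4541 homeodomain counts in replicate 2 and 4344 and 4803 in replicate 1. TPM divides by length, and Cux1-201, the homeodomain transcript with the largest estimated share, is 12862 bases long. The main distal transcript, Cux1-211, is 2831 bases long.

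The sequences at the branch of Cux1 show where the forms part. Both begin with the last 30 bases of the shared exon (chromosome 5, 136314307 to 136314403, minus strand, mm10), in lower case, and capitals mark the first 60 bases of the next exon. They were read 5′ to 3′ from GENCODE M21 transcripts. The homeodomain sequence is that of Cux1-204, which held 0.3% of the level of Cux1 in replicate 2 and 0.21% in replicate 1.
Cux1 joined to the distal end: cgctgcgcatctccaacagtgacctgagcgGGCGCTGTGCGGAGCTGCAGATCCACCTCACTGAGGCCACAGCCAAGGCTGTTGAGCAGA
Cux1 joined to the homeodomain end: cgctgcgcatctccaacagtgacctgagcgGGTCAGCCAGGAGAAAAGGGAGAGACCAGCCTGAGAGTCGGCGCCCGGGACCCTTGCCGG

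Junction reads in the mm9 files gave a second view of the same branch, free of transcript length. These files number 2 libraries without tying them to a replicate, so they are called the first and the second column. From the donor of the last shared exon, 327 of 358 reads in the first column and 334 of 383 reads in the second joined the distal end. The used acceptor of the homeodomain end took 29 reads, 8.10% (exact 95% interval 5.49 to 11.4), in the first column and 47 reads, 12.3% (9.16 to 16.0), in the second. The mm9 model of Cux1-201 lacks the version of the exon that these reads joined. The other acceptor of the homeodomain end had 2 reads in each column. Further along, the 9 introns leading to the distal end had a median of 378 reads in the first column and 419 in the second. The 10 introns leading to the homeodomain end had medians of 33 and 32.5 reads in the first and second column, and the 10 introns that both forms share had medians of 264 and 289.5 reads. The 2 sets of introns beyond the branch did not overlap in reads in either column. Intervals on reads cover counting error only, since the reads carry no molecular identifiers.

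**Figure D3:**
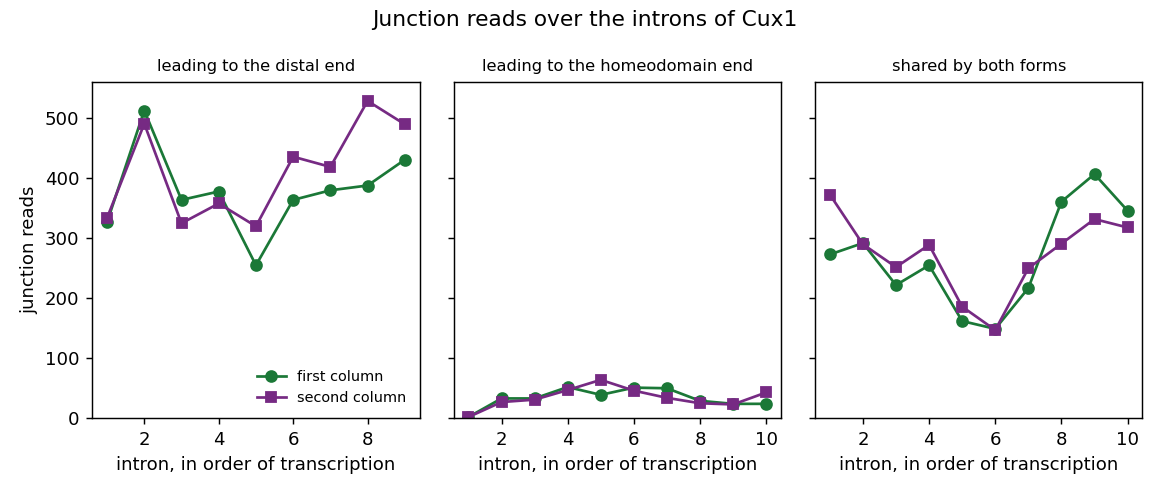
Junction reads over the introns of Cux1 in order of transcription, in the first mm9 column (circles) and the second (squares): introns leading to the distal end, introns leading to the homeodomain end, and introns both forms share. Reads over the distal end lie between 255 and 529, and those over the homeodomain end lie between 2 and 64; its first intron, with 2 reads in each column, is an acceptor that is hardly used, and the used one had 29 and 47 reads.

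Further choices were seen within Cux1. A 66-base exon of the homeodomain form (chromosome 5, 136787365 to 136787430, mm9) was included in 82.5% of informative reads in the first column and 80.6% in the second, on about 40 reads a column. Upstream, 3 acceptors competed for 1 donor with 45.2%, 31.6% and 23.3% of 301 reads in the first column and 48.5%, 31.7% and 19.4% of 309 reads in the second. The least used of these acceptors is absent from the older Ensembl 65 models.

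Cux2 was led by Cux2-202, which held 66.7% of the level in replicate 2 and 76.4% in replicate 1. Cux2-210, a coding transcript that begins inside the gene, held 14.4% and 10.5%, and the short Cux2-205 held 12.6% and 8.75%, on 73.7 counts in replicate 2 and 48.9 in replicate 1. A 75-base exon near the start of Cux2 (chromosome 5, 122493779 to 122493853, mm9) was included in 83.2% of reads in the first column and 75.3% in the second, as reads of annotated inclusion junctions against reads that skip it between the same outer sites. That measure leaves out skipping reads from a further first exon, whose donor lies at 122500024: from it 27 of 33 in the first column and 21 of 25 in the second joined the 75-base exon, and 6 and 4 reads skipped it. Reads that join the exon after the long first introns came from 3 main sites: 54.9%, 28.3% and 8.85% of 113 reads in the first column, and 47.9%, 32.9% and 12.3% of 146 reads in the second.

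Mef2c splicing was nearly fixed at some places and mixed at others. A pair of exons, known as alpha exons, is used in the alternative after a shared exon. From that exon, 1553 of 1582 reads in the first column and 1585 of 1616 reads in the second joined the 144-base exon, 98.2% and 98.1%. The 138-base partner (chromosome 13, 83764965 to 83765102, mm9) took 20 and 17 reads, 1.26% and 1.05%. Against reads that skip both exons its inclusion was 68.9% and 57.1%, which rests on 7 and 12 skipping reads. The 24-base exon further along, known as the beta exon, was included in 97.6% of reads in the first column and 97.8% in the second.

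The acceptor of the last exon was mixed. The outer site, which keeps a stretch of 96 coding bases known as the gamma region, took 35.8% of 1579 reads in the first column (exact 95% interval 33.4 to 38.2) and 34.5% of 1618 reads in the second (32.2 to 36.9). The inner site, which leaves the stretch out, took 54.3% and 56.8%. Another site 2 bases further in, which is not in the Ensembl 65 models, took 9.56% and 8.53%. The intervals of the outer and the inner site did not overlap in either column.

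The 4 alternative stretches of Mef2c are shown because these choices decide which protein the gene makes. Each is in capitals between 15 bases of its neighbours, read from GENCODE M21 transcripts on mm10 chromosome 13, plus strand, and each is a multiple of 3 bases long.
144-base exon, 83625265 to 83625408: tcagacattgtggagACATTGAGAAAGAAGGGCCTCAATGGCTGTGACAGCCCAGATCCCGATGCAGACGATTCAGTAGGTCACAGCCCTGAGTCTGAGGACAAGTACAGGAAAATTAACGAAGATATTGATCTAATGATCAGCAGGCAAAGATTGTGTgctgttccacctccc
138-base exon, 83625470 to 83625607: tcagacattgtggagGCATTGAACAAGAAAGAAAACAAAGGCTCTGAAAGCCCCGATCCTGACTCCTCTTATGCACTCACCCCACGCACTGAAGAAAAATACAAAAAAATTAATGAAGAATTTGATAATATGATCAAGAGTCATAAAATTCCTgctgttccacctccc
24-base exon, 83654598 to 83654621: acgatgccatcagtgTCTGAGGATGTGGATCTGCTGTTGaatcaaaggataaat
96-base stretch, 83662307 to 83662402: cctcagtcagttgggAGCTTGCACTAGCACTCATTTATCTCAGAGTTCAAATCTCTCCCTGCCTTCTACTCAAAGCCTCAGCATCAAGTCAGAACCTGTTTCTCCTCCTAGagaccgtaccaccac

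In the mm10 transcript tables Mef2c was split over 3 coding transcripts with nearly equal shares in both libraries. Mef2c-202 held 71.3% in replicate 2 and 71.5% in replicate 1, Mef2c-201 held 15.5% and 16.0%, and Mef2c-203 held 13.2% and 12.5%. All 3 have another length in GENCODE M21 than in the annotation the authors used, so the exons behind these shares were not compared with the junction reads. At the start of the gene, the exon whose donor lies at 83664137 (mm9) sent out 618 reads in the first column and 525 in the second, and the one at 83659480 sent out 154 and 134. These reads were also mixed, over acceptors 3 bases apart. From the first of these donors, the annotated acceptor took 50.5% of reads in the first column and 47.0% in the second, and an acceptor absent from the Ensembl 65 models took 48.7% and 52.6%. From the other donor the annotated acceptor took 73.4% and 64.2%, and the unannotated one took 26.0% and 35.1%.

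Rorb and Lhx2 each have a pair of first exons, and there the 2 kinds of file gave different shares. In the mm10 tables Rorb-203, which starts at the distal first exon, held 71.9% of the level in replicate 2 and 66.5% in replicate 1, and Rorb-201, which starts at the proximal one, held 23.3% and 29.5%. The mm9 junctions had 75 reads in the first column and 72 in the second out of the distal first exon of Rorb, against 0 and 1 out of the proximal one. A count of 0 of 75 has an exact 95% upper bound of 4.8% for counting error. For Lhx2, the downstream start Lhx2-201 held 58.8% in replicate 2 and 59.3% in replicate 1, and the upstream start Lhx2-203 held 31.1% and 27.0%. Junction reads into their shared second exon came from the upstream first exon in 54 of 458 cases, 11.8%, in the first column and 54 of 468, 11.5%, in the second.

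**Figure D4:**
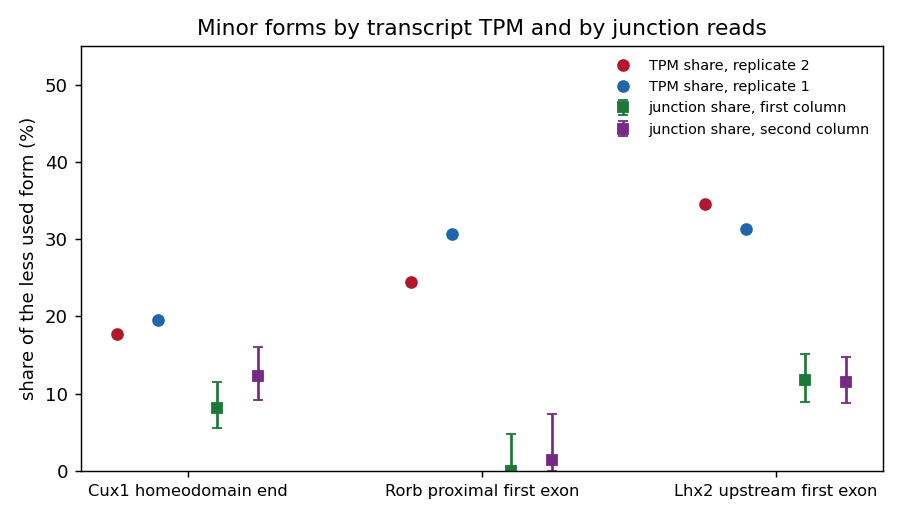
Share of the less used form of Cux1, Rorb and Lhx2, as a percent of both forms, from transcript TPM (circles, replicate 2 left of replicate 1) and from mm9 junction reads (squares with exact 95% intervals). The TPM shares lie between 17.7% and 34.6%, and each lies above both junction shares of its gene, which lie between 0 and 12.3%. The TPM shares of Cux1 leave out the 3 transcripts assigned to neither end.

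The 2 start regions of Rorb are printed because the reads came almost entirely from 1 of them. Each is the RefSeq window of 300 bases on the minus strand of GRCm38.p6, read 5′ to 3′, and capitals mark the dinucleotide CG. The distal window (chr19:19111147-19111446) holds 20 CG and 63.7% G and C, and 26.5% of 32851 promoter windows hold at least as many CG. The proximal window (chr19:19001068-19001367) holds 5 CG and 41% G and C, and 62.0% of windows hold at least as many.
Rorb distal start: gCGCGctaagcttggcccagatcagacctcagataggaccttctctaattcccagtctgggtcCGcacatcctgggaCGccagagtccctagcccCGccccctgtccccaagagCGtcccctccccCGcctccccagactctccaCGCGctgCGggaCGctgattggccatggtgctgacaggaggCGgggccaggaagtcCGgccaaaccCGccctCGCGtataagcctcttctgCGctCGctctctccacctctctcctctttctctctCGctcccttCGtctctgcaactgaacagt
Rorb proximal start: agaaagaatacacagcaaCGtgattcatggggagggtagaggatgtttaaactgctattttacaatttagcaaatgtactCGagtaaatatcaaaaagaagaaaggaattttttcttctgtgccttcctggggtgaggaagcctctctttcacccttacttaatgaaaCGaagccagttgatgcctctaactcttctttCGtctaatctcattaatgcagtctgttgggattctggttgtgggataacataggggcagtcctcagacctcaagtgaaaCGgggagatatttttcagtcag

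Rasgrf2 was carried mainly by transcript models that hold part of the gene. Rasgrf2-205, with 15 exons from the 3′ part and a long last exon, held 60.7% in replicate 2 and 64.4% in replicate 1. Rasgrf2-203, with 7 exons from the 5′ part, held 28.1% and 25.6%, and the full coding model Rasgrf2-201, with 34 exons, held 8.37% and 7.06%. In the mm9 junctions, 23 of 35 annotated introns of Rasgrf2 had reads, and only these are compared. The mm9 model spans 882 kb, against 251 kb in mm10, and its contigs leave a gap from 92137351 to 92791352 (mm9). The 15 covered introns of the 3′ part had a median of 191 reads in the first column and 170 in the second. The 8 covered introns of the 5′ part had medians of 116.5 and 140. The ranges of both parts overlapped, at 78 to 281 reads for the 3′ part and 73 to 164 reads for the 5′ part in the first column. At 1 exon, acceptors 3 bases apart shared the donor with 65.8% and 34.2% of 228 reads in the first column and 67.4% and 32.2% of 261 reads in the second.

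Mdga1 was the gene whose leading transcript changed between the libraries. Mdga1-208 led in replicate 2 with 26.3%, against 25.2% in replicate 1. Mdga1-201 led in replicate 1 with 36.5%, against 18.8% in replicate 2, which were 895 counts in replicate 1 and 536 in replicate 2. The retained-intron transcript Mdga1-203 held 23.4% in replicate 2 and 14.9% in replicate 1. The non-coding Mdga1-204 held 12.7% and 8.61%, on 16.3 counts in replicate 2 and 9.7 in replicate 1. Mdga1-206 held 4.88% in replicate 2 and 10.1% in replicate 1, on 9.76 and 17.6 counts. Coding transcripts summed to 49.9% of Mdga1 in replicate 2 and 71.8% in replicate 1, while in each of the other 8 genes they held at least 89.9% in both libraries. No test was made of these shares, since the estimated counts of overlapping transcripts are not independent. Transcript types came from GENCODE M21, where several Mdga1 transcripts and Cux2-202 have another length than in the annotation the authors used. Their exons in that annotation were not checked.

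**Figure D5:**
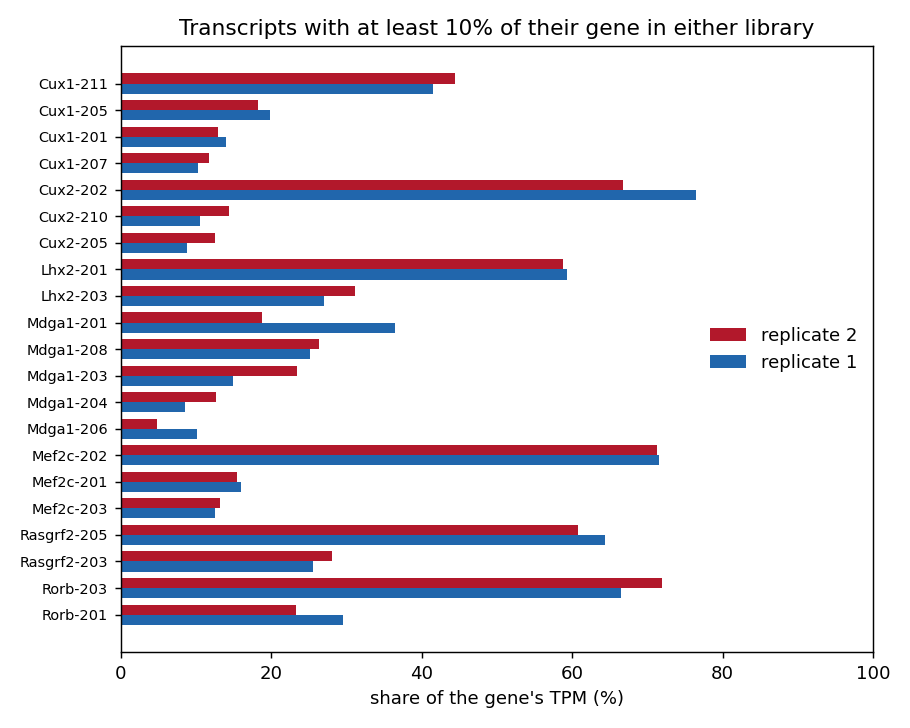
Share of its gene's TPM held by each transcript that reached 10% in either library, with replicate 2 in red above replicate 1 in blue; the single-exon genes Pou3f2 and Pou3f3 have 1 transcript each and are not drawn. Shares of the 3 Mef2c transcripts nearly coincide, and Mdga1-201 differs most, at 18.8% in replicate 2 and 36.5% in replicate 1.

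Measured against reads that skip an exon between the same outer sites, which leaves out alternative starts and ends, most internal exons were nearly always included. Versions of an exon with different boundaries were counted separately. Of 112 such internal exons of these genes with at least 20 informative reads in both mm9 columns, 109 were included in at least 95% of reads in both. The remaining 3 are the exons of Cux1, Cux2 and Mef2c described above. The measure averages both ends, so a little used version can score high: a 100-base version of an Mdga1 exon scored 100% in both columns, with 1 and 3 reads at its own splice site. The annotated junctions of Mef2c carried 10950 reads in the first column and 11032 in the second, and those of Mdga1 carried 563 and 569. Choices at the level of a few percent were therefore not detectable in Mdga1 at this depth.

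The genes next to these 9 were read where they reached 1 TPM. Pantr1, a long non-coding RNA gene on the opposite strand, lies 926 bases from the start of Pou3f3 and had 112.2 TPM in replicate 2 and 117.05 TPM in replicate 1, above Pou3f3 itself. Pantr2, on the opposite strand beyond the other end of Pou3f3, had 4.66 TPM in replicate 2 and 5.88 TPM in replicate 1. AC122898.1 overlaps Pou3f3 on the same strand and had 3.36 and 3.6 TPM, so the division of reads between these 2 genes is uncertain. C130071C03Rik, a non-coding gene downstream of Mef2c on the same strand, had 26.7 TPM in replicate 2 and 30.3 TPM in replicate 1. Dennd1a beside Lhx2 had 21.7 and 24.1 TPM, Msh3 beside Rasgrf2 had 10.3 and 11.0 TPM, and Fbxl4 beside Pou3f2 had 8.89 and 10.9 TPM. Ccdc167 beside Mdga1 had 8.19 TPM in replicate 2 and 7.66 TPM in replicate 1, Pheta1 and Myl2 on the sides of Cux2 had 6.09 and 6.99 TPM and 1.11 and 1.31 TPM, and Sh2b2 beside Cux1 had 4.03 and 3.92 TPM. Of these neighbours Sh2b2 was the one past the threshold, with a log2 ratio of 0.20 and an adjusted p of 0.0319 in the exact binomial test.

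Signal continued past the ends of the mm9 models of several of the genes. The mm9 contigs are stretches of continuous signal with 1 deposited level for the whole series. The contig over Pou3f3 was 29983 bases long, on the plus strand, and ran 25.3 kb beyond the end of the mm9 gene model, at a level of 3.37. That model spans 3.06 kb, while the mm10 transcript of Pou3f3 is 7409 bases long, and in mm10 AC122898.1 is annotated on the same strand from 42694925 to 42744791, so signal downstream of Pou3f3 is not all outside annotation. The contig over the end of Mef2c, with a level of 9.7, ran 6.35 kb beyond its mm9 model, and that of Rorb, with a level of 2.57, ran 3.22 kb beyond. For the other genes with an mm9 model the contig reached at most 0.691 kb beyond.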

How the data were processed

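The 9 genes and all gene lists were chosen with earlier results of these data known. The 2 libraries form 1 group, so no comparison of conditions was possible. Per the labels and file headers, the mm10 tables rest on GENCODE M4: the authors deposited expected counts (estimated fragments per gene), TPM with credible bounds, and, per transcript, the percent of the gene's TPM. The program is not given in the sources used here. The mm9 files deposited by the authors hold RPKM per gene and exon on Ensembl 65, junction reads, and a signal level per contig. The 26345 rows with no Ensembl gene identifier held 4.62% of the counts in replicate 2 and 3.86% in replicate 1 and were left out.

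Expected counts were rounded and scaled with edgeR 4.0.16 (TMM). Genes that reached 10 counts in sum were tested with SciPy 1.17.1 by an exact binomial test with Benjamini-Hochberg adjustment. The test was tried on simulated counts that held counting error only. That trial cannot show how the test fares here, where the ratio between the libraries had a coefficient of variation of 6.41% beyond counting. This value came from genes with high counts only. Symbols, for 98.0% of gene rows, positions, transcript names and types, and exon sequences came from GENCODE M21, promoters from RefSeq. Junction shares need at least 20 reads in each column. All 9 genes are named, as are relatives, neighbours from 1 TPM, transcripts from 10% and exons included in 10 to 90% of reads; of the other lists the 3 highest, the lowest and any called at 1.5-fold or more are named. Some genes this rule would name are not reported here. Rasgrf2-201, the splice-site choices, first exons, the Cux1 branch, contigs and the share of coding transcripts were chosen after their values were seen. Alternatives were plain totals, DESeq2 1.42.0 size factors, other minimum counts, a beta-binomial spread, other pseudocounts, posterior mean TPM, mm9 RPKM and leaving out each replicate.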

Additional observations from a re-analysis of the deposited data

How the results depend on the processing

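Of the 9 genes, 3 passed the threshold with plain totals, beside 31.2% of all genes tested. With DESeq2 size factors 1 passed, beside 28.7%, and with the trimmed mean of M-values 0 passed, beside 28.7%. The number stayed at 0 with a minimum of 1 or 50 counts and with a beta-binomial spread. That spread was fitted to genes with high counts only. Under that spread 778 of all genes tested were called in place of 5694. The median log2 ratio was -0.12 from TPM, where the median of all genes tested was -0.16. It was -0.01 with plain totals, so its sign rests on the scaling. The median level, 5.17 on the log2(TPM + 1) scale, was 4.78 without Mef2c, and lay between 5.11 and 5.22 without one replicate or the other. The gap to the deep-layer genes was 1.08 with a pseudocount of 0.1, 0.47 as a difference of means, and 1.02 to 1.06 without one replicate or the other. Of 44 values of family ratios under alternatives, 14 moved by more than the spread of the libraries. At 50 reads 2 exons had no value. With annotated skipping junctions only, the mean inclusion of the 75-base Cux2 exon was 100% in place of 79.3%. With 2 libraries, differences below about 0.1 on the log2 scale could not be told from counting error for Mdga1. No paired analysis was possible because the series has 1 group.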
